A study of Mus musculus with 7 samples.

Results

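Neutrophils recruited by the same cytokine into the airspaces of the lung and into the peritoneal cavity were compared gene by gene and cell by cell. The cells carried the condition "IL-1b lung" or "IL-1b peritoneum" in the deposited table of cells, together with a neutrophil class of the ImmGen reference (a class name starting GN). After filters on mitochondrial UMIs and on genes per cell, 627 neutrophils remained, 355 from lung and 272 from peritoneum, of 672 GN cells at the 2 sites, 4856 cells in the library and 21763 barcodes in the series. A UMI (unique molecular identifier) marks 1 captured RNA molecule.

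IL-1β, an alarm cytokine made by macrophages and by neutrophils themselves, signals through IL-1 receptor 1, MyD88 and IRAK kinases to the transcription factor NF-κB. NF-κB in turn drives the chemokines that draw neutrophils out of the blood, and it also drives its own inhibitors, which end the signal. Neutrophils that have left the circulation are no passive carriers of granules: they transcribe chemokines, cytokines and survival genes at the site they enter.

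The series profiled healthy neutrophils of blood, bone marrow and spleen, and neutrophils of inflamed sites, with droplet-based single-cell RNA sequencing. All cells came from male wild-type C57BL/6J mice and were sorted as live (propidium iodide negative), CD11b+ and Ly6G+. For pneumonitis, mice aged 8 weeks were anaesthetised with ketamine and xylazine, received 25 ng of recombinant mouse IL-1β in saline through the nose, and had the airspaces washed with cold saline after 3 h. For peritonitis, mice of the same age received 25 ng of IL-1β into the peritoneal cavity and had that cavity washed after 3 h, with no anaesthesia described. Cells of 3 mice were pooled for each site. Each site was labelled with its own hashtag antibody and both entered 1 library, together with healthy blood, arthritic blood and arthritic joint cells. No saline-treated group is among the conditions, and the healthy blood came from untreated mice, with ages of 6 and 8 weeks given for the healthy mice of the series. Arthritic blood came from mice aged 8 weeks that had received serum of K/BxN mice, which transfers arthritis, on days 0 and 2 and were sampled on day 7.

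With 1 pool of mice for each site there is no replicate check, so no difference below carries a test. Levels are CPM, the UMIs of a gene per 1000000 UMIs summed over the cells of a condition. Ratios are given with exact 95% intervals in parentheses, which cover counting error only and say nothing about the spread between mice. Shares of cells with a UMI were taken after each cell had been thinned to 1000 UMIs, which left 286 lung, 231 peritoneal and 354 healthy blood cells. Route, anaesthesia, lavage and organ all differ between the 2 pools and cannot be told apart, nor can a change in RNA per cell be told apart from a change in the mixture of cells.

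The 2 sites were read at similar depth. Lung cells held 1305842 UMIs with a median of 3877 per cell, and peritoneal cells held 931352 UMIs with a median of 3638 per cell. A shallow tail was present at both sites, where 69 lung cells and 41 peritoneal cells had under 1000 UMIs. The neutrophil label was checked with S100a8 and S100a9, the calprotectin subunits, which stood at 77506 and 94768 CPM in lung and at 74470.2 and 95405 CPM in peritoneum. Ly6g, the antigen used in the sort, was at 179 CPM in lung, 74.1 CPM in peritoneum and 53.5 CPM in healthy blood. Of 14 airway and alveolar epithelial markers, 8 had a UMI in lung and 0 in peritoneum or blood. Scgb1a1, the secretoglobin of airway club cells, made up 88 of those UMIs in 17 lung cells. The airway RNA therefore moved with the lung label, and its part in the results was not tested.

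Markers of other leukocytes were scarce. Alveolar macrophage markers summed to 21.4 CPM in lung and 31.1 CPM in peritoneum, with Marco at 0 in both, and peritoneal macrophage markers summed to 32.2 and 16.1 CPM, with Gata6 and Timd4 at 0 in both. Of 12 shared macrophage and monocyte markers, 5 were at 0 in both sites, the complement genes C1qa and C1qc among them, and the list summed to 295 CPM in lung and 389 CPM in peritoneum. Its 3 highest members did not run one way. Ly6c2, a Ly6C antigen gene of monocytes, was at 197 CPM in lung and 115 CPM in peritoneum. Adgre1, which encodes the macrophage antigen F4/80, was at 23.7 and 158 CPM, and Csf1r, the M-CSF receptor, at 68.2 and 108 CPM. B cell, T and NK cell, mast cell, eosinophil, platelet, red cell, dendritic cell and mesothelial lists each stayed at or under 30.1 CPM at both sites. The part of these cells in the results was not tested.

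The reference classes given by the authors split the sites, although those classes were assigned from the same RNA. Of lung cells, 75.5% (95% exact binomial interval, 70.7 to 79.9) were closest to neutrophils of arthritic synovial fluid (GN.Arth.SynF), against 37.1% (31.4 to 43.2) of peritoneal cells. Neutrophils of the thioglycollate-treated peritoneum (GN.Thio.PC) were the closest class of 16.9% (13.2 to 21.2) of lung cells and 52.9% (46.8 to 59.0) of peritoneal cells. The 60 lung cells of the thioglycollate class were shallow, with a median of 716.5 UMIs, whereas the 144 peritoneal cells had a median of 3175 UMIs. Thinning to 1000 UMIs kept 16 of these lung cells and 107 of these peritoneal cells, so shares in lung rest almost wholly on the other classes. Within the synovial fluid class (268 lung and 101 peritoneal cells), all 141 genes at least 2-fold higher in lung and all 141 at least 2-fold higher in peritoneum, as counted in the next paragraph, kept their direction, and 122 and 116 of them were still past 2-fold. Within the thioglycollate class, 138 and 130 kept their direction and 121 and 71 were still past 2-fold, so that many peritoneum-high calls were lost there.

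Of 2004 genes with at least 100 UMIs over both sites, 141 were at least 2-fold higher in lung (7.04% of those genes) and 141 were at least 2-fold higher in peritoneum (7.04%). At a fold of 1.5 the counts were 318 (15.9%) and 333 (16.6%). The median log2 ratio over all 2004 genes was 0.0041. The balance between the sites depended on the scaling, since without the 20 most abundant genes in the total the 1.5-fold counts were 364 in lung and 299 in peritoneum, and with equal weight for each cell 367 and 297. For scale, among genes with a mean of at least 100 CPM, 14.4% of 1110 genes lay past 2-fold between lung and peritoneum. Between healthy and arthritic blood, which differ in treatment and in mice but not in site, 1.82% of 1376 genes did. Against healthy blood, 52.2% of 1363 genes lay past 2-fold in lung and 53.6% of 1368 in peritoneum. The sites thus differed from each other by far fewer genes than either differed from blood, but by more than the blood pools differed from each other. Of the 282 genes past 2-fold, 254 lie outside a set of 32 already named for these sites, and within that set 8 were at least 2-fold higher in lung, 20 were in peritoneum and the log2 ratios of lung over peritoneum ran from -3.65 to 4.52.

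**Figure D1:**
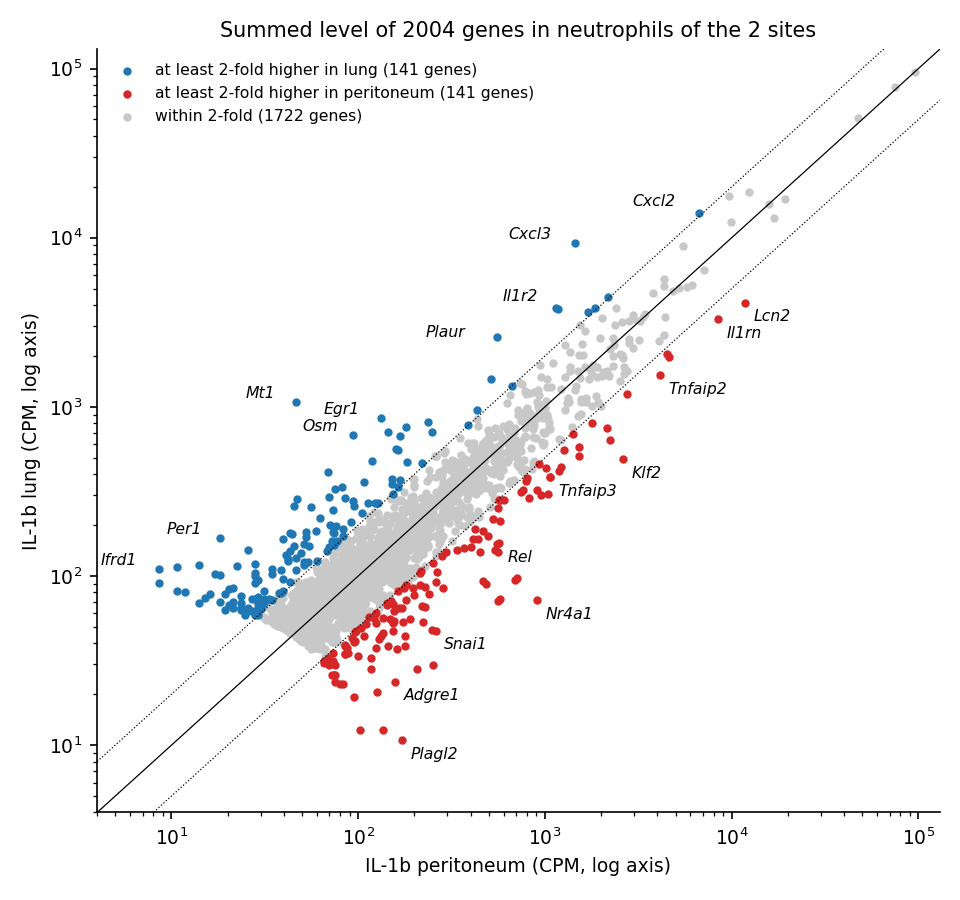
Level of each of 2004 genes in neutrophils of the IL-1b peritoneum (horizontal) and IL-1b lung (vertical), in CPM of summed UMIs on log axes, 1 point per gene. The solid line marks equal levels and the dotted lines 2-fold, with 141 genes beyond the line on each side. Mt1 lies farthest above the lines, and Plagl2 and Nr4a1 lie far below them.

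Genes of the NF-κB pathway leaned to the peritoneum. NF-κB binds a short sequence near its target genes, and a kB-type motif, GGG then any 2 bases then TTTCC, was searched on either strand in the 250 bases before each annotated start in the RefSeq table for GRCm38.p6. The motif and the promoters printed were chosen after the values had been seen. It was present in 1.65% of 27025 genes with a promoter in that table and in 2.67% of 1573 of the genes with 100 UMIs. Of genes at least 2-fold higher in peritoneum it was present in 11 of 108 with a promoter, and of those at least 2-fold higher in lung in 3 of 102. A gene was counted when any of its starts in the table had a match, so genes with more starts had more windows. A match of letters is a description of the promoter and not evidence of binding.

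Promoters are shown for 3 peritoneum-high genes and for both lung-high CXC chemokines, because they show that the motif occurs on either side. Letters run 5′ to 3′ toward the start of the gene, with the motif in capitals. For a gene with several starts in the table, the start with the most matches was printed. The windows are Rel at chr11:23770970-23771219 (minus strand), Tnfaip3 at chr10:19015411-19015660 (minus strand), Il1rn at chr2:24345121-24345370 (plus strand), Cxcl2 at chr5:90903649-90903898 (plus strand) and Cxcl3 at chr5:90785851-90786100 (plus strand), where Tnfaip3 and Il1rn have further starts in the table.
Rel: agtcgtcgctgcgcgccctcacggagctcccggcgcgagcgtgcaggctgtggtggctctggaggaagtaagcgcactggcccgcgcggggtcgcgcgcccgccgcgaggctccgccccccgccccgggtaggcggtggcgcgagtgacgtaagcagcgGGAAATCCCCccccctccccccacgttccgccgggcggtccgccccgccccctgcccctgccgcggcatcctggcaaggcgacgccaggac
Tnfaip3: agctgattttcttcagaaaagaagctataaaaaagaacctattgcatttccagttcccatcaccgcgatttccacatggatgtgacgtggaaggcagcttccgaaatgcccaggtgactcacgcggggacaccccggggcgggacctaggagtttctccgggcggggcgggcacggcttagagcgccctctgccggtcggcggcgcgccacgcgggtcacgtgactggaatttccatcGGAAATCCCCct
Il1rn: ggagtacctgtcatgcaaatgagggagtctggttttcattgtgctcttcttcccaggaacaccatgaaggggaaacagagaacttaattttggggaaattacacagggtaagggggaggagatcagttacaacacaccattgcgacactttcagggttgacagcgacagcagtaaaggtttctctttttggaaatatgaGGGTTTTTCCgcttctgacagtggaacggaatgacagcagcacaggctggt
Cxcl2: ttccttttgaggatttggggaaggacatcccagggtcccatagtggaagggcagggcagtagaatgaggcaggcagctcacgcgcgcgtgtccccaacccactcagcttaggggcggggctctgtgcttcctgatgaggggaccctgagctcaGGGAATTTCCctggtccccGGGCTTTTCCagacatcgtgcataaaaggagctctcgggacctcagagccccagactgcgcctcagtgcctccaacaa
Cxcl3: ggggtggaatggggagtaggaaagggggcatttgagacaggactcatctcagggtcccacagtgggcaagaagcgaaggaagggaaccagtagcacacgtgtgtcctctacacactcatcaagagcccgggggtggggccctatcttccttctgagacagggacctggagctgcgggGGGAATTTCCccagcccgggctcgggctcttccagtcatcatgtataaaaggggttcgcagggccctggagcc

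All 5 NF-κB subunit genes had a lower level in lung, and 2 of them passed 2-fold. Rel, the subunit c-Rel, was at 156 CPM in lung, 568 CPM in peritoneum and 72.2 CPM in healthy blood, 3.64-fold higher in peritoneum (3.09 to 4.29). Nfkb2, the p100 precursor of the noncanonical pathway, was at 142 CPM in lung, 339 CPM in peritoneum and 13.4 CPM in healthy blood, 2.39-fold higher in peritoneum (1.99 to 2.89). Relb, its usual partner, was 1.96-fold higher in peritoneum (1.61 to 2.38). Rela and Nfkb1, which encode the subunits of the canonical dimer, differed by less, at 1.3-fold (1.04 to 1.63) and 1.34-fold (1.19 to 1.51), both higher in peritoneum.

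The inhibitors and feedback genes of NF-κB gave a clearer split. Of 15 members with 100 UMIs, 6 were at least 2-fold and 11 at least 1.5-fold higher in peritoneum, and 0 were 1.5-fold higher in lung. Their median log2 ratio was -0.92, and the list of 18 summed to 6787 CPM in lung, 14275 CPM in peritoneum and 2171 CPM in healthy blood, 2.1-fold higher in peritoneum (2.05 to 2.16). Tnfaip3, the ubiquitin-editing brake A20, was at 384 CPM in lung, 1058 CPM in peritoneum and 25 CPM in healthy blood, 2.75-fold higher in peritoneum (2.47 to 3.07). Nfkbiz, the nuclear regulator IκBζ, was at 384 CPM in lung, 1067 CPM in peritoneum and 155 CPM in healthy blood, 2.78-fold higher in peritoneum (2.5 to 3.1). Bcl3, another nuclear IκB protein, was 3.79-fold higher in peritoneum (3.19 to 4.51), and Tnfaip2 was 2.67-fold higher in peritoneum (2.53 to 2.82). Nfkbia, which encodes IκBα, was abundant at both sites and 1.62-fold higher in peritoneum (1.55 to 1.7). Both sites stood above healthy blood for all 5 of these genes. Nfkbid did not follow, at 185 CPM in lung and 134 CPM in peritoneum, and Traf1 was nearly level at 237 and 251 CPM.

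The difference lay across the cells and not in a few of them. At 1000 UMIs, a peritoneal cell carried a median of 15 UMIs of the inhibitor and feedback list (quartiles, 10 and 20) and a lung cell a median of 6 (quartiles, 4 and 9). The healthy blood median was 2. Only 3.85% of lung cells lay above the peritoneal median, and 86.6% of peritoneal cells lay above the lung median. Among single genes, a UMI of Tnfaip3 was found in 29% of lung cells and 56.7% of peritoneal cells (3.11% in blood). For Bcl3 it was found in 15.4% of lung cells and 46.8% of peritoneal cells (8.19% in blood), and for Rel in 12.9% of lung cells and 39.8% of peritoneal cells (7.06% in blood). Without thinning, the shares in lung and peritoneum were 51% and 73.2% for Tnfaip3, 36.3% and 73.5% for Bcl3 and 36.9% and 69.9% for Rel.

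**Figure D2:**
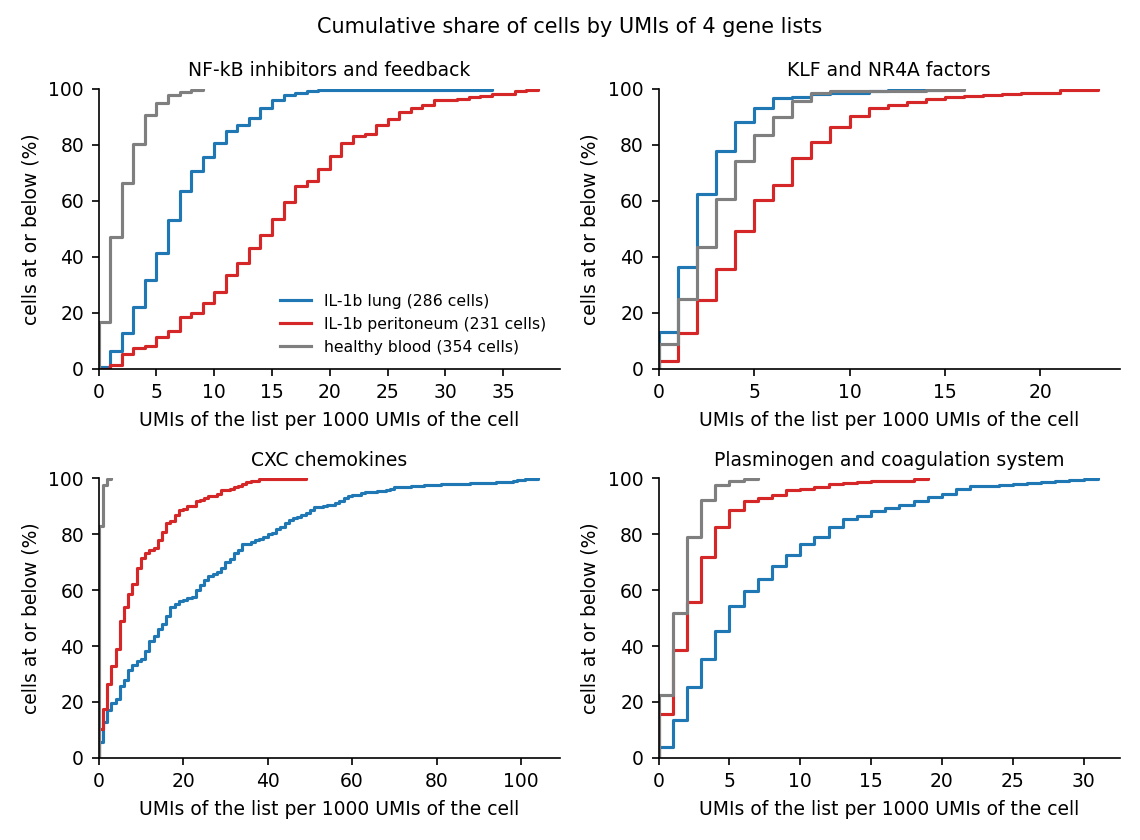
Cumulative share of cells (vertical, %) by the number of UMIs of a gene list per 1000 UMIs of the cell (horizontal), for 286 IL-1b lung, 231 IL-1b peritoneum and 354 healthy blood cells, each thinned to 1000 UMIs. Peritoneal cells lie to the right for NF-κB inhibitors and for KLF and NR4A factors, and lung cells lie to the right for CXC chemokines and for the plasminogen and coagulation list.

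Genes of the IL-1 receptor pathway itself diverged on its 2 antagonists. Il1rn, the receptor antagonist that blocks IL-1β from the outside, was at 3303 CPM in lung, 8437 CPM in peritoneum and 297 CPM in healthy blood, 2.55-fold higher in peritoneum (2.46 to 2.65). Il1r2, the decoy receptor that binds IL-1β without signalling, was at 3863 CPM in lung, 1151 CPM in peritoneum and 267 CPM in healthy blood, 3.36-fold higher in lung (3.14 to 3.59). Peritoneal cells therefore held more transcript of the antagonist gene Il1rn and lung cells more of the decoy, and both were above blood at both sites. A UMI of Il1r2 was found in 91.3% of lung cells and 59.7% of peritoneal cells (19.2% in blood). Inside the cell, the adaptor gene Myd88 was 1.88-fold higher in peritoneum (1.61 to 2.21), the kinase gene Irak2 1.57-fold higher in peritoneum (1.34 to 1.83) and Map3k8, the MAP kinase kinase kinase TPL2, 2.42-fold higher in peritoneum (2.09 to 2.81). Traf6, the ubiquitin ligase below them, went the other way, 1.82-fold higher in lung (1.39 to 2.41), although this turned among cells of the thioglycollate class. Il1rap, the shared receptor chain, was level at 648 and 642 CPM.

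Chemokines divided by family member. Cxcl2 and Cxcl3, ligands of CXCR2 that attract neutrophils, were 2.09-fold higher in lung (2.03 to 2.15) and 6.37-fold higher in lung (6.02 to 6.74). Cxcl2 reached 14056 CPM in lung, 6720.3 CPM in peritoneum and 205 CPM in healthy blood. Cxcl3 reached 9263 CPM in lung, 1454 CPM in peritoneum and 75.8 CPM in healthy blood. The 2 neighbours differed in how many cells carried them, since Cxcl2 was found in 86.4% of lung cells and 87% of peritoneal cells but Cxcl3 in 77.6% of lung cells and 36.4% of peritoneal cells. Cxcl10, an interferon-responsive ligand of CXCR3 that attracts T cells, was at 71.2 CPM in lung, 559 CPM in peritoneum and 8.02 CPM in healthy blood, 7.85-fold higher in peritoneum (6.29 to 9.9). It was seen in 2.1% of lung cells and 17.3% of peritoneal cells, and the 24 peritoneal cells with most of it held 86.8% of its UMIs. Such a share is larger for genes with few UMIs per cell.

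Among CC chemokines, Ccl6 was at 4469.9 CPM in lung, 2166 CPM in peritoneum and 4555 CPM in healthy blood, so the lung level was close to that of blood and the peritoneal level below it. Ccl9 was rare at both sites and 5.06-fold higher in lung (3.19 to 8.42). Ccl3 and Ccl4, which attract monocytes and lymphocytes, were 1.5-fold (1.41 to 1.59) and 1.25-fold (1.2 to 1.3) higher in lung. Their summed list turned toward peritoneum among cells of the thioglycollate class. Their shares of cells ran the other way, at 42.3% of lung cells and 55% of peritoneal cells for Ccl4, so no order of the sites was read from them. The UMIs of Ccl4 were less evenly spread in lung, where the 29 cells with most of it held 69.3% of them, against 55.3% in the 24 peritoneal cells with most.

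Chemoattractant receptors differed by less than the ligands. Of 11 with 100 UMIs, 3 were at least 1.5-fold higher in lung, 2 in peritoneum and 0 passed 2-fold. Of all genes, 15.9% passed 1.5-fold toward lung and 16.6% toward peritoneum, so the peritoneal count was near that share. Cxcr2, the receptor for Cxcl2 and Cxcl3, was at 2107 CPM in lung, 1356 CPM in peritoneum and 1986 CPM in healthy blood. Ccr1, a receptor for CC chemokines including Ccl3, was 1.99-fold higher in lung (1.87 to 2.11). Cxcr4, the receptor that holds neutrophils in the marrow, was at 544 CPM in lung, 291 CPM in peritoneum and 1038 CPM in healthy blood. Ptafr, the receptor for platelet-activating factor, was 1.71-fold higher in peritoneum (1.58 to 1.85). The formyl peptide receptor gene Fpr2 and the C5a receptor gene C5ar1 were 1.44-fold (1.31 to 1.57) and 1.34-fold (1.23 to 1.45), both higher in peritoneum and both under 1.5-fold.

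Cytokine genes also separated. Il1b itself was high at both sites, at 12401 CPM in lung, 9878 CPM in peritoneum and 3868 CPM in healthy blood. Osm, oncostatin M, a cytokine of the IL-6 family, was at 677 CPM in lung, 93.4 CPM in peritoneum and 33 CPM in healthy blood, 7.25-fold higher in lung (5.81 to 9.14), and a UMI was found in 30.4% of lung cells and 7.36% of peritoneal cells. Tnf was at 85 CPM in lung, 286 CPM in peritoneum and 10.7 CPM in healthy blood, 3.36-fold higher in peritoneum (2.68 to 4.23). Ebi3, a subunit of IL-27 and IL-35, was 3.54-fold higher in peritoneum (3.01 to 4.19). Tgfb1 was 1.65-fold higher in peritoneum (1.44 to 1.88), and Il1a, a low gene, was 1.55-fold higher in lung (1.2 to 2.02), which turned among cells of the thioglycollate class.

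**Figure D3:**
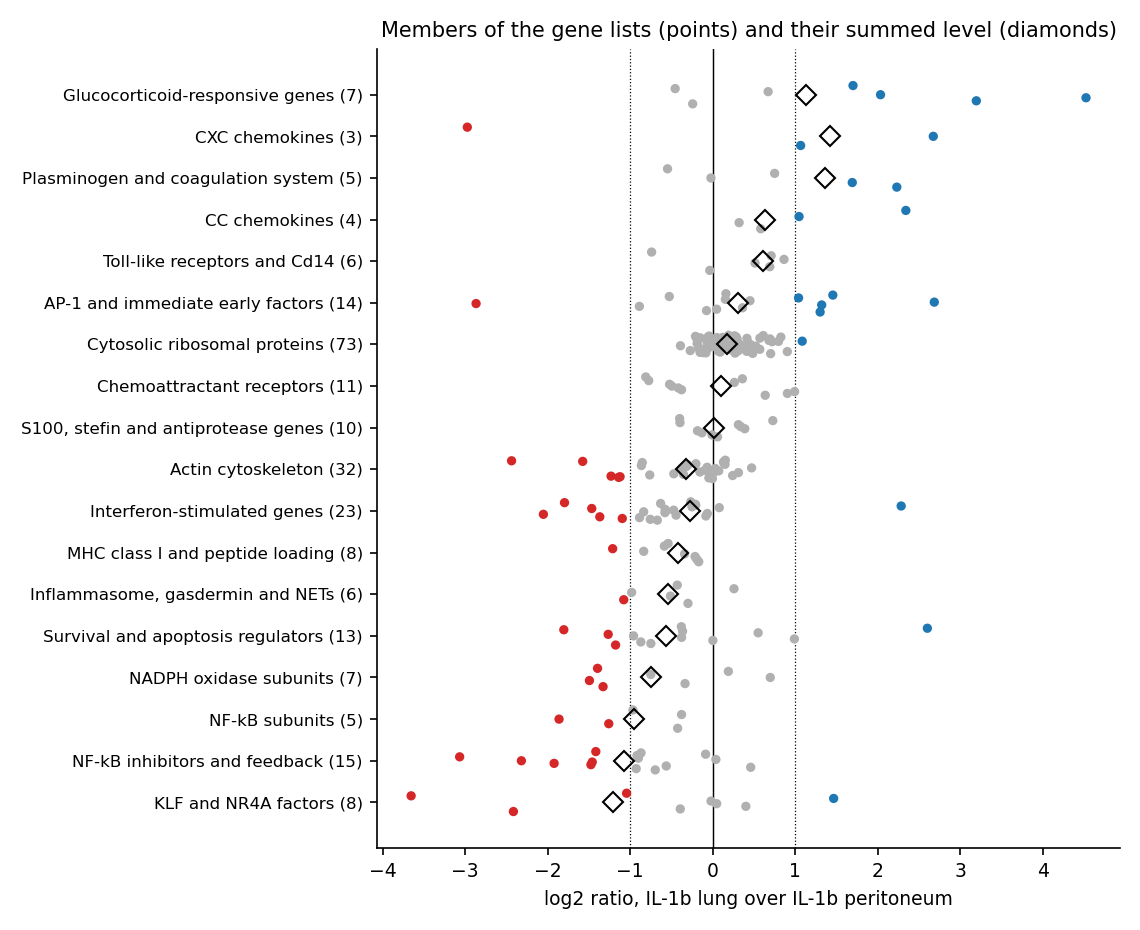
Log2 ratio of IL-1b lung over IL-1b peritoneum for the members of 18 gene lists (points, 1 per gene with at least 100 UMIs, number in parentheses) and for the summed level of each list (diamonds). Blue points are at least 2-fold higher in lung and red points at least 2-fold higher in peritoneum. The summed levels of both NF-κB lists and of KLF and NR4A factors lie to the left, and those of the CXC chemokine, glucocorticoid-responsive and plasminogen lists to the right of 0.

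Immediate early factors past 2-fold were mostly higher in lung. Of 14 AP-1 and immediate early genes with 100 UMIs, 5 were at least 2-fold higher in lung and 1 in peritoneum. Their median log2 ratio was 0.26. Of all genes, 7.04% passed 2-fold in each direction, so the peritoneal count was near that share. Egr1, an early growth response zinc finger, was at 855 CPM in lung, 133 CPM in peritoneum and 27.6 CPM in healthy blood, 6.42-fold higher in lung (5.33 to 7.8). Fos was at 373 CPM in lung, 151 CPM in peritoneum and 411 CPM in healthy blood, so its lung level was near that of blood and its peritoneal level was lower. Maff, a small MAF factor, was 2.74-fold higher in lung (2.01 to 3.81) and Ier3 2.06-fold higher in lung (1.95 to 2.17). Batf, an AP-1 family member that pairs with JUN and IRF proteins, was at 97.3 CPM in lung, 709.7 CPM in peritoneum and 49.9 CPM in healthy blood, 7.3-fold higher in peritoneum (6.03 to 8.89). Its share was 9.44% of lung cells and 52.8% of peritoneal cells (6.21% in blood). Junb was high everywhere and 1.28-fold higher in lung (1.22 to 1.35), whereas Jund was 1.85-fold higher in peritoneum (1.7 to 2.01).

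KLF and NR4A factors, which are induced by flow, calcium or cyclic AMP signals in several cell types, differed strongly in a few members. Of 8 with 100 UMIs, 3 were at least 2-fold higher in peritoneum and 1 in lung, and the other 4 lay within 1.5-fold, with a median log2 ratio of -0.21. Nr4a1, the orphan nuclear receptor Nur77, was at 72 CPM in lung, 906 CPM in peritoneum and 63.3 CPM in healthy blood, 12.6-fold higher in peritoneum (10.2 to 15.8). A UMI of Nr4a1 was found in 5.24% of lung cells and 48.5% of peritoneal cells, with lung close to the 3.67% of blood. Nr4a3 was 2.06-fold higher in peritoneum (1.65 to 2.58). Klf2, a factor of leukocyte quiescence and trafficking, was at 492 CPM in lung, 2626 CPM in peritoneum and 1423 CPM in healthy blood, with blood lying between the 2 sites. Klf13 was 2.76-fold higher in lung (1.99 to 3.9), and Klf6 and Klf7 lay within 1.5-fold.

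Dual-specificity phosphatases, which switch off MAP kinases, gave opposite members. Dusp1 was 1.59-fold higher in lung (1.51 to 1.67), which turned among cells of the thioglycollate class. Dusp2 was at 95 CPM in lung, 695 CPM in peritoneum and 8.02 CPM in healthy blood, 7.32-fold higher in peritoneum (6.03 to 8.94). Dusp16, a phosphatase of JNK and p38, was 1.98-fold higher in peritoneum (1.77 to 2.21).

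Genes that answer to glucocorticoids leaned to lung. Of 7 with 100 UMIs, 4 were at least 2-fold higher in lung and 0 in peritoneum, and their median log2 ratio was 1.70. The list summed to 3849 CPM in lung, 1757 CPM in peritoneum and 4516 CPM in healthy blood, so both sites were below blood in the sum. The members past 2-fold were Mt1, a metallothionein that binds zinc, Crispld2, Per1, a period protein of the circadian clock, and Zfp36l2, an mRNA decay protein. Mt1 was at 1061 CPM in lung, 46.2 CPM in peritoneum and 1.78 CPM in healthy blood, 23-fold higher in lung (17 to 31.9). Per1 was at 167 CPM in lung, 18.3 CPM in peritoneum and 51.7 CPM in healthy blood, 9.15-fold higher in lung (5.58 to 16). Crispld2 was 4.09-fold higher in lung (3.2 to 5.29). Zfp36l2 was at 132 CPM in lung, 40.8 CPM in peritoneum and 860.2 CPM in healthy blood, so it was below blood at both sites and lower in peritoneum. Tsc22d3, the glucocorticoid-induced leucine zipper, did not take part, at 162 CPM in lung, 192 CPM in peritoneum and 1176 CPM in healthy blood. Anxa1, annexin A1, was 1.37-fold higher in peritoneum (1.17 to 1.61). Mt1, Per1, Zfp36l2 and Crispld2 also answer to signals other than glucocorticoids.

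Mt1 was carried by a minority of lung cells. A UMI was found in 24.8% of lung cells and 2.6% of peritoneal cells (0.282% in blood). The 29 lung cells with most Mt1 held 80.6% of its UMIs, up to 62 of the 1000 UMIs in 1 cell. For Plaur the corresponding share was 36.9%, and for Cd14 26.6%. Among clock and D-box factors, Nfil3 was 4.03-fold higher in lung (3.29 to 4.99) and Bhlhe40 2.59-fold higher in lung (2.18 to 3.09). Of the 15 genes in that list, which does not hold Per1, these 2 had 100 UMIs.

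Further regulators had members on either side. Of 13 C/EBP, ID and lineage factors with 100 UMIs, 4 were at least 1.5-fold higher in lung and 1 in peritoneum. Their median log2 ratio was 0.057, and of all genes 15.9% passed 1.5-fold toward lung and 16.6% toward peritoneum. Id2 and Id1, inhibitors of helix-loop-helix factors, were at 409.7 CPM in lung, 68.7 CPM in peritoneum and 39.2 CPM in healthy blood for Id2 and 955 CPM in lung, 432 CPM in peritoneum and 75.8 CPM in healthy blood for Id1. Cdkn1a, the cyclin-dependent kinase inhibitor p21, was at 286 CPM in lung, 47.2 CPM in peritoneum and 1.78 CPM in healthy blood, 6.06-fold higher in lung (4.43 to 8.49). Xbp1 and Ddit3, 2 factors of the unfolded protein response of which Ddit3 encodes CHOP, were 1.87-fold higher in lung (1.71 to 2.04) and 4.2-fold higher in lung (2.76 to 6.63), and Ddit3 was lower at both sites than in blood. In the unfolded protein response list, which holds neither, 0 of 6 genes with 100 UMIs were 1.5-fold higher in lung and 1 was in peritoneum. Of 5 hypoxia-responsive genes, Ddit3 counted among them, 1 was at least 2-fold higher in lung and 1 in peritoneum. Hif1a, the hypoxia-inducible factor subunit, was 1.91-fold higher in lung (1.66 to 2.2), and Ero1l, an oxidase of protein folding, 3.17-fold higher in peritoneum (2.05 to 5.0). Spi1, the myeloid factor PU.1, was at 471 CPM in lung, 877 CPM in peritoneum and 1174 CPM in healthy blood, in the order of peritoneum above lung but blood above both.

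**Figure D4:**
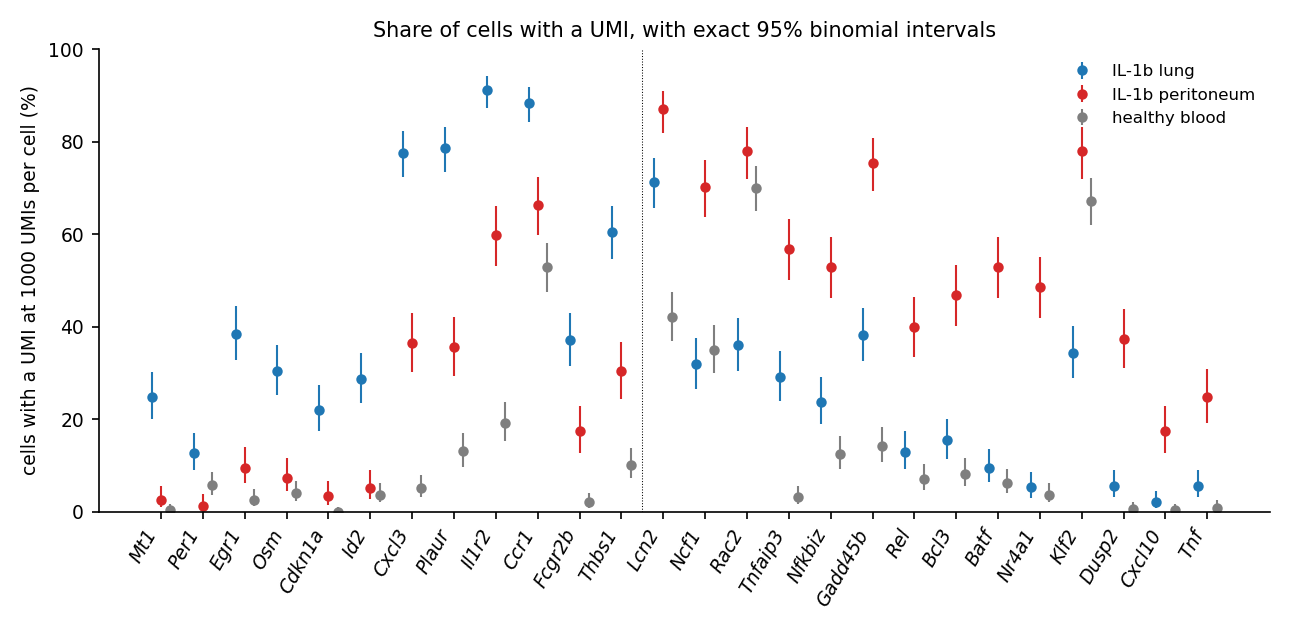
Share of cells with at least 1 UMI (vertical, %) for 26 genes after thinning each cell to 1000 UMIs, in IL-1b lung (blue), IL-1b peritoneum (red) and healthy blood (grey), with exact 95% binomial intervals as bars. Genes left of the dotted line had the larger share in lung, and those right of it in peritoneum.

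The interferon-stimulated list leaned to peritoneum with less contrast. Of 23 genes with 100 UMIs, 5 were at least 2-fold and 10 at least 1.5-fold higher in peritoneum, against 1 in lung, with a median log2 ratio of -0.58. Parp14 was 3.47-fold higher in peritoneum (2.69 to 4.51), Rsad2, the antiviral enzyme viperin, 2.58-fold higher in peritoneum (2.02 to 3.32) and Isg15 1.59-fold higher in peritoneum (1.37 to 1.86). Isg15 was level among cells of the synovial fluid class, where the whole list was close to even as well, and Rsad2 turned toward lung in the thioglycollate class. Of 2 abundant members, Ifitm2 differed little, at 5264 CPM in lung and 6092 CPM in peritoneum, whereas Ifitm3 was 1.55-fold higher in peritoneum (1.44 to 1.67). Of 8 genes of MHC class I and peptide loading, 3 were at least 1.5-fold higher in peritoneum and 0 in lung. Among antigen presentation genes, B2m was 1.79-fold higher in peritoneum (1.68 to 1.9), Tap1 2.32-fold higher in peritoneum (1.61 to 3.38) (turned toward lung in the thioglycollate class), Cd74 2.72-fold higher in peritoneum (2.28 to 3.26) and Cd274, which encodes PD-L1, 2.22-fold higher in peritoneum (1.93 to 2.56). Cd80, a costimulatory ligand, was 2.07-fold higher in lung (1.56 to 2.76).

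Survival and apoptosis regulators past 1.5-fold were mostly higher in peritoneum. Of 13 with 100 UMIs, 6 were at least 1.5-fold higher in peritoneum and 2 in lung, Cdkn1a, given above, among the latter. Their median log2 ratio was -0.38. Of all genes, 16.6% passed 1.5-fold toward peritoneum and 15.9% toward lung, so the lung count was near that share. The Bcl2a1 genes encode the anti-apoptotic protein A1 in near-identical copies, so reads may be split between them and single copies are uncertain. Bcl2a1b was 1.68-fold higher in peritoneum (1.59 to 1.78), Bcl2a1a 2.26-fold higher in peritoneum (2.06 to 2.48) and Bcl2a1d 1.83-fold higher in peritoneum (1.63 to 2.05). Gadd45b, a stress protein and NF-κB target, was at 638 CPM in lung, 2228 CPM in peritoneum and 144 CPM in healthy blood, 3.49-fold higher in peritoneum (3.22 to 3.79). Cflar, which encodes the caspase-8 inhibitor c-FLIP, was 1.94-fold higher in peritoneum (1.7 to 2.23). Mcl1, the survival protein on which neutrophils depend, was level at 3219 and 3217 CPM. Of 5 TNF receptor family genes with 100 UMIs, Tnfrsf1b, TNF receptor 2, was 2.8-fold higher in peritoneum (2.49 to 3.16), and the decoy receptors Tnfrsf23 and Tnfrsf26 were 3.48-fold higher in lung (2.55 to 4.83) and 5.97-fold higher in lung (3.55 to 10.8).

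Of 22 JAK-STAT, SOCS and PIM genes with 100 UMIs, which act below cytokine receptors, 3 were at least 2-fold higher in peritoneum and 0 in lung. At 1.5-fold the counts were 7 in peritoneum and 1 in lung, with a median log2 ratio of -0.13. Of all genes, 7.04% passed 2-fold in each direction, and 16.6% passed 1.5-fold toward peritoneum and 15.9% toward lung. Pim1, a survival kinase induced by STAT factors, was at 1197 CPM in lung, 2733 CPM in peritoneum and 279.9 CPM in healthy blood, 2.28-fold higher in peritoneum (2.14 to 2.43). Csf3r, the G-CSF receptor, was at 1162 CPM in lung, 1886 CPM in peritoneum and 4045 CPM in healthy blood, lowest in lung and highest in blood, although lung exceeded peritoneum in the thioglycollate class. Il17ra was 1.8-fold higher in lung (1.49 to 2.2), and Socs3 lay within 1.5-fold at 1493 and 1906 CPM.

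Genes of the NADPH oxidase, which makes superoxide, were more often higher in peritoneum. Of 7 with 100 UMIs, 3 were at least 2-fold higher in peritoneum and 0 in lung, against 7.04% of all genes in each direction. At 1.5-fold the counts were 4 in peritoneum and 1 in lung, against 16.6% and 15.9% of all genes. Rac2, the small GTPase of the oxidase, was at 578 CPM in lung, 1521 CPM in peritoneum and 1302 CPM in healthy blood, 2.63-fold higher in peritoneum (2.41 to 2.88). Ncf1, the subunit p47phox, was 2.82-fold higher in peritoneum (2.54 to 3.13), Cybb, the catalytic subunit gp91phox, 2.51-fold higher in peritoneum (2.1 to 3.01) and Ncf4 1.68-fold higher in peritoneum (1.47 to 1.92).

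Granule genes were divided. Of 12 secondary and tertiary granule genes with 100 UMIs, 4 were at least 2-fold higher in lung and 3 in peritoneum. Lcn2, the siderophore-binding granule protein lipocalin 2, was the most abundant gene past 2-fold toward peritoneum, at 4128 CPM in lung, 11800.0 CPM in peritoneum and 815 CPM in healthy blood, 2.86-fold higher in peritoneum (2.77 to 2.95). Lyz2, lysozyme, was at 750.5 CPM in lung, 2148 CPM in peritoneum and 2399 CPM in healthy blood, so the peritoneal level was close to that of blood and the lung level lower. Chil1, a chitinase-like protein, was 2.84-fold higher in peritoneum (2.51 to 3.22). In the other direction, Retnlg, a resistin-like secreted protein, was 1.82-fold higher in lung (1.78 to 1.87), Mmp8, neutrophil collagenase, 1.59-fold higher in lung (1.45 to 1.74) and Adam8, a sheddase of adhesion receptors, 3.47-fold higher in lung (2.99 to 4.03). Mmp9, gelatinase B, was within 1.5-fold at 587 and 713 CPM and higher in blood.

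Of 5 plasminogen and coagulation genes with 100 UMIs, 3 were at least 1.5-fold higher in lung and 0 in peritoneum. Plaur, the urokinase receptor, was at 2588 CPM in lung, 552 CPM in peritoneum and 196 CPM in healthy blood, 4.69-fold higher in lung (4.27 to 5.16), and a UMI was found in 78.7% of lung cells and 35.5% of peritoneal cells (13% in blood). Thbs1, thrombospondin 1, was at 3801 CPM in lung, 1178 CPM in peritoneum and 118 CPM in healthy blood, 3.23-fold higher in lung (3.02 to 3.45). Tgm2, transglutaminase 2, was 1.68-fold higher in lung (1.39 to 2.04). Platelet genes were scarce beside them, with Pf4 at 11 UMIs in lung and 1 UMI in peritoneum. A lung cell carried a median of 5 UMIs of the plasminogen and coagulation list per 1000, and a peritoneal cell 2.

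Pattern recognition and Fc receptor genes showed smaller shifts. Cd14, the lipopolysaccharide co-receptor, was at 8931 CPM in lung, 5469 CPM in peritoneum and 103 CPM in healthy blood, 1.63-fold higher in lung (1.58 to 1.69). Tlr4 was 1.61-fold higher in lung (1.27 to 2.07), whereas Tlr2 was level at 884 and 906 CPM. Fcgr2b, the inhibitory IgG receptor, was at 513 CPM in lung, 259 CPM in peritoneum and 14.3 CPM in healthy blood, and Fcgr3, an activating IgG receptor, was 1.8-fold higher in lung (1.64 to 1.98). Of 11 genes in the list of Fc receptors, kinases and adaptors, 3 were at least 1.5-fold higher in lung and 4 in peritoneum. The SRC family kinase genes Fgr and Lyn were 2.17-fold higher in peritoneum (1.93 to 2.44) and 1.69-fold higher in peritoneum (1.49 to 1.92). The adaptors Tyrobp and Fcer1g were level, at 1.01-fold and 1.01-fold. The CD300, Siglec, SIRP and LILR receptor list was balanced, with 5 of 16 genes at least 1.5-fold higher in lung and 5 in peritoneum. In it, Lilr4b was 1.72-fold higher in lung (1.62 to 1.83), Cd33 1.83-fold higher in lung (1.71 to 1.96) and Cd300ld 1.85-fold higher in lung (1.63 to 2.11), but Siglece was 1.62-fold higher in peritoneum (1.47 to 1.78).

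Actin cytoskeleton genes that differed were higher in peritoneum. Of 32 with 100 UMIs, 5 were at least 2-fold and 8 at least 1.5-fold higher in peritoneum and 0 in lung, where 7.04% and 16.6% of all genes passed these folds toward peritoneum, although Actb, cytoplasmic actin, was level at 15742 and 15786 CPM. Marcksl1 and Marcks, substrates of protein kinase C at the membrane, were 2.35-fold higher in peritoneum (2.24 to 2.47) and 2.18-fold higher in peritoneum (2.07 to 2.29). Vasp, which extends actin filaments, was 2.2-fold higher in peritoneum (2.04 to 2.38) and Cfl1, which severs them, 1.7-fold higher in peritoneum (1.57 to 1.84). Ehd1, a recycling endosome protein in the same list, was 2.98-fold higher in peritoneum (2.72 to 3.27). Of 11 adhesion genes, 3 were at least 1.5-fold higher in peritoneum and 1 in lung, against 16.6% and 15.9% of all genes. Icam1, an adhesion ligand, was at 189 CPM in lung, 424 CPM in peritoneum and 18.7 CPM in healthy blood and Itgal, the αL chain of the integrin LFA-1, at 165 CPM in lung, 412 CPM in peritoneum and 743 CPM in healthy blood. Cd24a was 1.94-fold higher in lung (1.73 to 2.18).

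Few complement and inflammasome genes passed 1.5-fold. Toward peritoneum, where 16.6% of all genes passed 1.5-fold, 1 of 5 complement genes with 100 UMIs was at least 1.5-fold higher, with a median log2 ratio of 0.07 over the list, and of 6 inflammasome, gasdermin and NET genes 2 were, with 0 past 1.5-fold in lung in either list. C3, the central complement component, was at 316 CPM in lung, 747 CPM in peritoneum and 98.1 CPM in healthy blood, 2.37-fold higher in peritoneum (2.09 to 2.68). Casp4, the sensor of intracellular lipopolysaccharide also known as caspase-11, was 2.11-fold higher in peritoneum (1.88 to 2.37). Irg1, the itaconate-producing enzyme, was at 1554 CPM in lung, 2657 CPM in peritoneum and 47.2 CPM in healthy blood, 1.71-fold higher in peritoneum (1.61 to 1.81). Nlrp3 was 1.23-fold (1.11 to 1.37) higher in peritoneum. Hdc, which makes histamine, was nearly level at 3306 and 2998 CPM.

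Glycolysis and respiratory chain genes were close to even. Of 15 glycolysis genes with 100 UMIs, 0 were 1.5-fold higher in lung and 2 in peritoneum, and Gapdh stood at 580.5 and 652 CPM. Ferritin heavy chain, Fth1, was among the most abundant transcripts at 50851 CPM in lung, 47368 CPM in peritoneum and 6169 CPM in healthy blood. Of 73 cytosolic ribosomal protein genes, 9 were at least 1.5-fold higher in lung and 0 in peritoneum, against 15.9% and 16.6% of all genes. The lung count was thus no excess over all genes. The median log2 ratio of these genes was 0.20. Both sites were below blood in the sum, at 27764 CPM in lung, 24537 CPM in peritoneum and 54332 CPM in healthy blood. Nuclear respiratory chain genes had a median log2 ratio of 0.10. Nfe2l2, the oxidative stress factor NRF2, was 2.02-fold higher in peritoneum (1.82 to 2.25), and Prdx6, a peroxiredoxin, was 2.06-fold higher in lung (1.71 to 2.49). Of 8 cholesterol and lipid handling genes, 3 were at least 2-fold higher in lung and 0 in peritoneum. Plin2, a lipid droplet coat protein, was 2.74-fold higher in lung (2.16 to 3.5), Abcg1, a cholesterol exporter, 2.59-fold higher in lung (1.68 to 4.12) and Apoe, apolipoprotein E, 2.16-fold higher in lung (1.5 to 3.17), and the latter pair was below blood at both sites.

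Genes with the most extreme ratios were mostly of low to middle level. Leaving aside 32 genes that the study names for this contrast, the 12 highest ratios in lung were those of Per1, Egr1, Cxcl3, Cdkn1a and Tnfrsf26, given above, and of Ifrd1, Elovl5 (a fatty acid elongase), Prnp (the prion protein), Ctsl (cathepsin L), E230001N04Rik, Creb5 and Gcnt1 (a glycosyltransferase that builds selectin ligands). Ifrd1 was at 109.5 CPM in lung, 8.59 CPM in peritoneum and 13.4 CPM in healthy blood, 12.7-fold higher in lung (6.3 to 30.1). Elovl5 was 10.5-fold higher in lung (5.17 to 24.9) and Prnp 10.5-fold higher in lung (5.54 to 22.3). Gcnt1 was at 260.4 CPM in lung, 45.1 CPM in peritoneum and 135 CPM in healthy blood, so that blood lay between the sites.

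In peritoneum the corresponding 12 were Plagl2, Sh3bp5, B4galt5, Rilpl2, Ggct, Adgre1, Bcl6, Snai1, Arhgef3, AI467606, Nod1 and Arf2. Plagl2, a zinc finger factor, was at 10.7 CPM in lung, 172 CPM in peritoneum and 27.6 CPM in healthy blood, 16-fold higher in peritoneum (9.28 to 30.0). Rilpl2 was the most abundant of them, at 72.8 CPM in lung, 577 CPM in peritoneum and 55.3 CPM in healthy blood, and was found in 6.99% of lung cells and 40.3% of peritoneal cells. Snai1, a zinc finger repressor best known from epithelial to mesenchymal transition, was at 47.5 CPM in lung, 261 CPM in peritoneum and 2.67 CPM in healthy blood. Bcl6, a repressor that opposes inflammatory gene expression, was at 20.7 CPM in lung, 126 CPM in peritoneum and 139.9 CPM in healthy blood, so the peritoneal level was close to that of blood and the lung level lower. Nod1, a sensor of bacterial peptidoglycan, was 4.65-fold higher in peritoneum (3.37 to 6.52).

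The genes past 2-fold between the sites were also set against healthy blood, and the 2 comparisons share the blood cells. Of the 141 genes higher in lung, 59 were above blood at both sites, 29 below it at both and 53 above it in lung but below it in peritoneum. Of the 141 higher in peritoneum, 75 were above blood at both sites, 28 below it at both and 38 above it in peritoneum but below it in lung. With at least 1.5-fold asked on each side of blood, the last counts were 12 and 7. A finer split used 2-fold. Of the 141 lung-high genes, 34 were at least 2-fold above blood at both sites, 44 in lung with peritoneum within 2-fold, and 43 were at least 2-fold below blood in peritoneum with lung within 2-fold. Of the 141 peritoneum-high genes, 45 were at least 2-fold above blood at both sites, 41 in peritoneum with lung within 2-fold, and 28 were at least 2-fold below blood in lung with peritoneum within 2-fold. Only Per1 and Rnf169 were 2-fold above blood in lung and 2-fold below it in peritoneum, and only Plagl2 and Sh3bp5 the reverse.

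**Figure D5:**
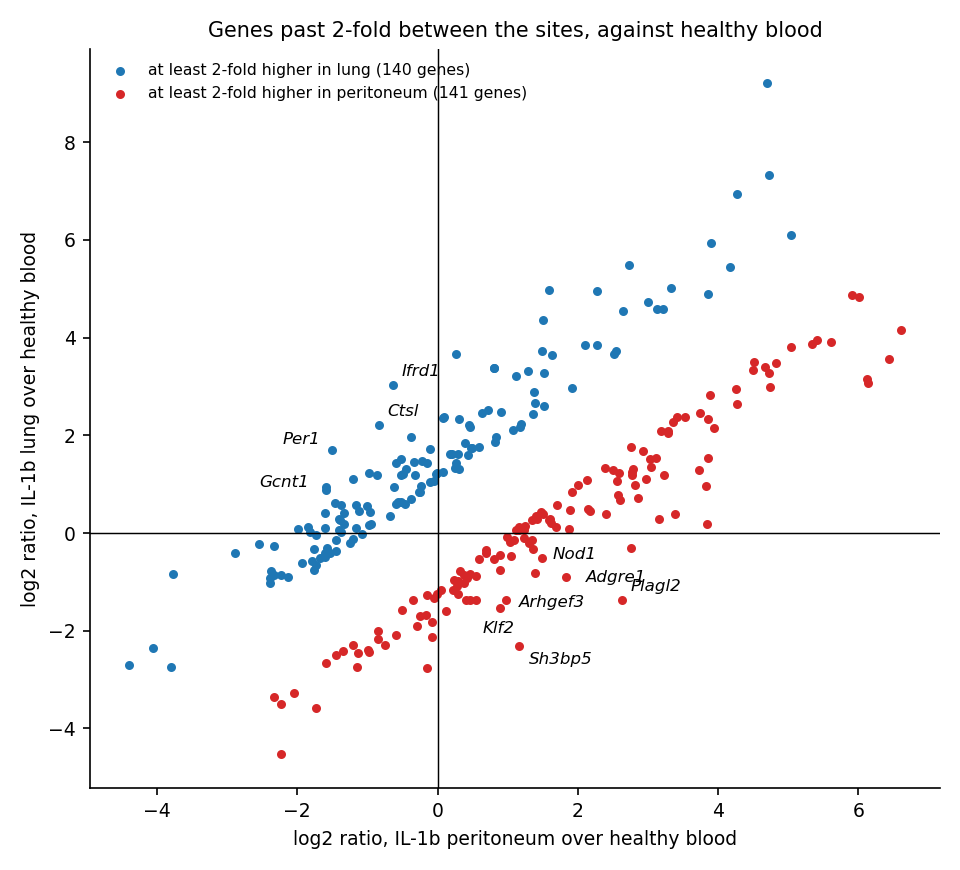
Log2 ratio of IL-1b peritoneum over healthy blood (horizontal) and of IL-1b lung over healthy blood (vertical) for 281 genes at least 2-fold different between the sites, 1 point per gene, blue where higher in lung and red where higher in peritoneum. 1 further gene had no UMI in blood and is not drawn. The 10 named genes lie at least 1.5-fold above blood at 1 site and at least 1.5-fold below it at the other.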

How the data were processed

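Sorted neutrophils of 5 conditions were hashtagged, pooled and profiled in 1 droplet library. The authors processed the reads with Cell Ranger (3.0.2) against mm10 and deposited UMI counts per gene and cell, with a table giving each cell's condition and ImmGen class. Reads came from transcript 3′ ends, so levels of different genes are only roughly comparable. Hashtag doublets were removed by the authors before deposit, and no other doublet caller was run. The cell numbers of the 2 IL-1b sites stand in the study's text in the opposite order of size from the deposited table, which was followed here. Of 14 airway and alveolar epithelial markers, 8 had a UMI in the cells labelled lung and 0 in those labelled peritoneum.

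GN cells with at most 5% mitochondrial UMIs and genes per cell within the 1st to 99th percentile of GN cells (325.51 to 1894.49) were kept, which left out 25 lung and 20 peritoneal cells. Counts were summed per condition and divided by their total (CPM). Intervals of CPM ratios were exact conditional binomial intervals, and those of shares were Clopper-Pearson intervals (scipy 1.17.1). Cells were thinned once with a fixed seed (numpy 2.4.6). The ratio and its interval were tested on simulated data with 200 changed genes. The genes named were the 12 highest and 12 lowest ratios outside 32 genes of the study's text, plus, in each of 49 pathway lists, up to 6 members past 1.5-fold and 2 others by UMIs. Values of 3 single list members are not reported here. Members and lists were chosen with earlier results of these data known. Alternatives covered scaling, cell filters, cell weights, thinning, the UMI minimum and cells with markers of other types.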

Additional observations from a re-analysis of the deposited data

Results flagged for a closer look

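Named genes that lay at least 1.5-fold above healthy blood at 1 site and at least 1.5-fold below it at the other were singled out. Each gene is given with the log2 ratio to blood in lung minus that in peritoneum. Above blood in lung and below it in peritoneum were Ifrd1 (3.67, with 8.19 times the blood level in lung and 0.642 times it in peritoneum), Per1 (3.19, with 3.23 times the blood level in lung and 0.353 times it in peritoneum), Ctsl (3.06, with 4.66 times the blood level in lung and 0.559 times it in peritoneum) and Gcnt1 (2.53, with 1.92 times the blood level in lung and 0.333 times it in peritoneum). Above blood in peritoneum and below it in lung were Plagl2 (-4.00, with 0.388 times the blood level in lung and 6.22 times it in peritoneum), Sh3bp5 (-3.46, with 0.202 times the blood level in lung and 2.23 times it in peritoneum), Adgre1 (-2.73, with 0.533 times the blood level in lung and 3.54 times it in peritoneum), Arhgef3 (-2.36, with 0.384 times the blood level in lung and 1.96 times it in peritoneum), Nod1 (-2.22, with 0.565 times the blood level in lung and 2.63 times it in peritoneum) and Klf2 (-2.42, with 0.346 times the blood level in lung and 1.85 times it in peritoneum). With 1 pool for each condition the difference was not tested, and both ratios share the blood cells. The lowest of these sums are small, at 8 UMIs of Ifrd1, 13 of Ctsl and 17 of Per1 in peritoneum and at 14 of Plagl2, 16 of Sh3bp5 and 31 of Adgre1 in lung.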

How the results depend on the processing

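Counts of genes past 2-fold in lung and in peritoneum (141 and 141) and past 1.5-fold (318 and 333) stayed within 1.5 times these values under another scaling, without the filter on cells, with equal weight for each cell and with cells of at least 2000 UMIs, the last chosen after seeing the data. The other alternatives also changed the number of genes tested. With at least 50 UMIs (3017 genes) they were 239, 218, 547 and 514, in the order 2-fold lung, 2-fold peritoneum, 1.5-fold lung and 1.5-fold peritoneum. With no minimum (7828 genes) they were 1075, 1060, 1778 and 1677, and with cells thinned to 1000 UMIs (673 genes) 47, 60, 104 and 138. With at least 200 UMIs (1200 genes), those that left the range were 80 (2-fold lung), 182 (1.5-fold lung) and 218 (1.5-fold peritoneum). Without cells that had a UMI of 1 of 94 markers of other cells (125 lung and 84 peritoneal cells, where Csf1r, Ly6c2 and Adgre1 were not used because over 10% of cells at a site had them), 211 of 1424 genes were past 1.5-fold in lung, and all 141 and 141 genes past 2-fold kept their direction, 131 and 123 of them past 2-fold. Both ImmGen class alternatives were chosen after seeing the data. Within GN.Arth.SynF (1473 genes), 88 and 215 genes were past 2-fold and 1.5-fold in peritoneum. Within GN.Thio.PC (665 genes) the 4 counts were 85, 90, 139 and 179.

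The summed log2 ratios of lung over peritoneum kept their sign in the lists followed closely. That of NF-κB inhibitors (-1.07) was -1.02 when scaled without the 20 most abundant genes, -1.13 thinned and -0.97 in GN.Thio.PC. That of immediate early genes (0.31) was 0.36 without the 20 genes and 0.27 in GN.Thio.PC. Glucocorticoid-responsive genes (1.13) were at 1.21 thinned and 1.32 in GN.Arth.SynF. Interferon-stimulated genes (-0.27) weakened to -0.22 without the 20 genes, -0.21 with equal weights, -0.20 without marker cells, -0.029 in GN.Arth.SynF and -0.16 in GN.Thio.PC. Of the 49 pathway lists and the genes named by rule, directions turned only within a class. In GN.Thio.PC they were CC chemokines (-0.40), Traf6 (-1.18), Dusp1 (-0.18), Il1a (-1.50), Rsad2 (0.30), Csf3r (0.33), Wfdc17 (-0.44), Ptpn6 (0.012), Tap1 (0.10), Rpl17 (-0.92), Rpl7 (-0.24) and Ndufa6 (-0.10). Over all genes past 2-fold, 138 of 141 and 130 of 141 kept their direction there. In GN.Arth.SynF, Isg15 (0.0003) and Cd69 (0.051) turned. The cause was not tested. Of 265 differences between the sites in the share of cells with a UMI, 72 moved by more than the counting interval without thinning and 38 with thinning to 2000 UMIs, and 0 whose site intervals did not overlap turned.

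The lung cells of GN.Thio.PC were few and shallow, and genes with few UMIs limit every ratio. No paired analysis was possible because each site is 1 pool of mice, and no replicate was left out for the same reason.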

Other observations

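Groups not described above showed small or divided differences between the sites. Ptgs2, the inducible cyclooxygenase, was at 421 CPM in lung, 239 CPM in peritoneum and 23.2 CPM in healthy blood, 1.76-fold higher in lung (1.5 to 2.06), and Alox5ap, the partner of 5-lipoxygenase, was lower at both sites than in blood, at 1257 CPM in lung, 913 CPM in peritoneum and 2126 CPM in healthy blood. Of 8 C-type lectin receptors with 100 UMIs, 1 was at least 1.5-fold higher in peritoneum and 0 in lung, and the fungal and damage sensors Clec4d and Clec4e ran in opposite directions at 1.23-fold (1.17 to 1.3) higher in lung and 1.31-fold (1.23 to 1.39) higher in peritoneum. The tetraspanin Cd63, a marker of primary granule membranes, was 1.66-fold higher in lung (1.37 to 2.01), whereas Cd82 was 1.78-fold higher in peritoneum (1.41 to 2.23) and Cd9 was level at 2205 and 2238 CPM. Cd47, the ligand of SIRPα that limits uptake by phagocytes, was at 1457 CPM in lung, 1028 CPM in peritoneum and 371 CPM in healthy blood. Of 4 heat shock genes with 100 UMIs, 0 were 1.5-fold higher in lung and 1 in peritoneum, and Hspa8 was 1.35-fold higher in lung (1.18 to 1.55).

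Some abundant secreted proteins were unevenly spread over cells. Wfdc17, an antiprotease-like gene, was at 3329 CPM in lung, 2010.0 CPM in peritoneum and 770.1 CPM in healthy blood, and the 29 lung cells with most of it held 57.3% of its UMIs, against 65.2% in the 24 peritoneal cells with most. Wfdc17 turned toward peritoneum among cells of the thioglycollate class. Ccl3 showed the opposite order, with 63.1% in lung and 46.6% in peritoneum. This share is larger for genes with few UMIs per cell, and Wfdc17 had fewer in peritoneum, whereas Ccl3 had more in lung. For Il1b it was 29.6% and 25.9%.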
